A study of Mus musculus with 7 samples.

Results

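The actin cytoskeleton genes described here are 38 genes, Enah and 37 others, chosen by name: every gene of the count table whose symbol was on a list of actins, actin-binding proteins, filament nucleators, capping proteins, myosin II chains and membrane linkers. All 38 were found among the 24421 genes of the table, and all 38 passed the filter on low counts and were tested. The list was drawn up to ask whether a rise of Enah that was already known in these data is shared by the genes whose products work with it, so the values of Enah itself are given as a description.

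The samples were mouse eosinophils sorted from muscle 3 days after a treatment the labels abbreviate as ntx, and RNA was sequenced from them. The WT group had 3 libraries and the IL5-Tg group, which carries a transgene for the eosinophil cytokine interleukin-5, had 4; both groups had the same treatment, time point and sort, and the series concerns the effect of excess eosinophils on muscle. Sorted cells were positive for CD45 and SiglecF, negative for NK1, Ly6G and CD3e, and in a CD11b gate. The series title speaks of mdx mice, which lack dystrophin, while the sample labels give WT and IL5-Tg only. Not given in the sources used here are the promoter or cell type driving the transgene, the age of the animals, any pooling, and whether each library stands for its own mouse. The p-values therefore reflect variation among 7 libraries, part of which may be technical.

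Actin filaments grow by adding monomers at their fast-growing barbed ends. The Arp2/3 complex, switched on by WASP-family proteins, starts branches, formins start unbranched filaments, capping protein stops growth, and cofilin and gelsolin cut filaments. The Ena/VASP proteins, Enah (also called Mena), Vasp and Evl, bind barbed ends, bring in actin held by profilin and hold off capping protein. In leukocytes this machinery drives crawling and shape change. Vasp and Evl are the family members usually described in blood cells, and Enah is best known from neurons, fibroblasts and invasive tumour cells.

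The promoters of the 3 Ena/VASP genes are shown because these paralogs are compared with each other. Each runs 5′ to 3′ on the gene's strand from 250 bases before to 50 bases after the RefSeq start site, on GRCm38.p6. Capitals mark the 50 bases from the start site on. Enah lies at chr1:182019931-182020230 (minus strand), Vasp at chr7:19271805-19272104 (minus strand) and Evl at chr12:108554470-108554769 (plus strand).
Enah: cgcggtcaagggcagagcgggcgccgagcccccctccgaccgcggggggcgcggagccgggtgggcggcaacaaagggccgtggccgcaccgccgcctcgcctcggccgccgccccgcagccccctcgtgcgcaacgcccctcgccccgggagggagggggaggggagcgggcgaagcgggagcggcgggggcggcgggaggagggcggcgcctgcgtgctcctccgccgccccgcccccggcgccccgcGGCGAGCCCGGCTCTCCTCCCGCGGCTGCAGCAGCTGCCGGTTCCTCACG
Vasp: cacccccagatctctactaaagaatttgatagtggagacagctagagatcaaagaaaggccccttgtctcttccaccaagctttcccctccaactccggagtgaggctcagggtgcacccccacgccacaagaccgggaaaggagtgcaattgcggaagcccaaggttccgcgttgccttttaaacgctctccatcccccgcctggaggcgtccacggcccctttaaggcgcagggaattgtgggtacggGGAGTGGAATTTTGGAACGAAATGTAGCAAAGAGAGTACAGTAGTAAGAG
Evl: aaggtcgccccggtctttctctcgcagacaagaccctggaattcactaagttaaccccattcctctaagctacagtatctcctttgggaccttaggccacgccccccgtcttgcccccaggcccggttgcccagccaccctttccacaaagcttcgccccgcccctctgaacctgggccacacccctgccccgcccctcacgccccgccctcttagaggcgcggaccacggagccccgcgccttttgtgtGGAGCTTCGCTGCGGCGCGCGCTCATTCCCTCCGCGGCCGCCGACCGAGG
The Enah window was 83.3% G and C and held 49 CpG dinucleotides, against medians of 52.7% and 7 over the 32851 mouse windows of the same table, and it stood at percentile 99.7 for its G and C content. The Vasp window was 54.3% G and C and the Evl window shown 66.3%. Evl has another window, at chr12:108605516-108605815, which is not shown and was 51.3% G and C.

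The labels were first checked against genes that define them. Il5 measured 1.39, 0 and 0 CPM in WT and 349, 447, 338 and 368 CPM in IL5-Tg. CPM are counts in genes brought to a common library size, here with scaling by the trimmed mean of M values (TMM). The eosinophil markers Siglecf (251 to 648 CPM in WT, 471 to 857 in IL5-Tg) and Ccr3 (640.4 to 1393 and 575 to 1058) were present in every library. Counts in genes ran from 9665093 to 17447106 per library. The library WT 3 stood apart: its 9 fibroblast markers summed to 16.2 CPM, against 2937 and 3215 in the other WT libraries and 1934 to 4779 in IL5-Tg, with Lum, Pdgfra and Mfap5 at 0. Among thinly covered genes the count met most often was 5, 8 and 12 reads in WT 1, 2 and 3, and 1, 1, 1 and 4 reads in IL5-Tg 1 to 4. Values without WT 3 are given for the Ena/VASP genes, Gsn, Diap1, Flna, Myh9, Arpc1b, Arpc3, Cttn and Plek.

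Of the 38 genes, Enah was the only one called by edgeR's quasi-likelihood test at a Benjamini-Hochberg adjusted p under 0.05. It was higher in IL5-Tg, and none of the 38 was called lower. Over all 12428 genes tested, 0.41% were called, 0.338% higher and 0.0724% lower. At an unadjusted p under 0.05 stood 2 of the 38, Enah and Gsn, against 9.04% of all genes tested. The groups did not overlap, with IL5-Tg higher, for the same 2 genes, against 4.76% of all genes. They did not overlap, with IL5-Tg lower, for Arpc1b and Arpc3, against 4.6% of all genes. The median log2 fold change (IL5-Tg over WT) of the 37 genes other than Enah was 0.00, with 19 values above 0 and 18 below, and the values ran from -0.29 to 0.87. The median of all genes tested was 0.03. DESeq2 called 1 of the 38, Enah, and 1.81% of all genes. Leaving out WT 3 left Enah as the only one of the 38 called.

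**Figure D1:**
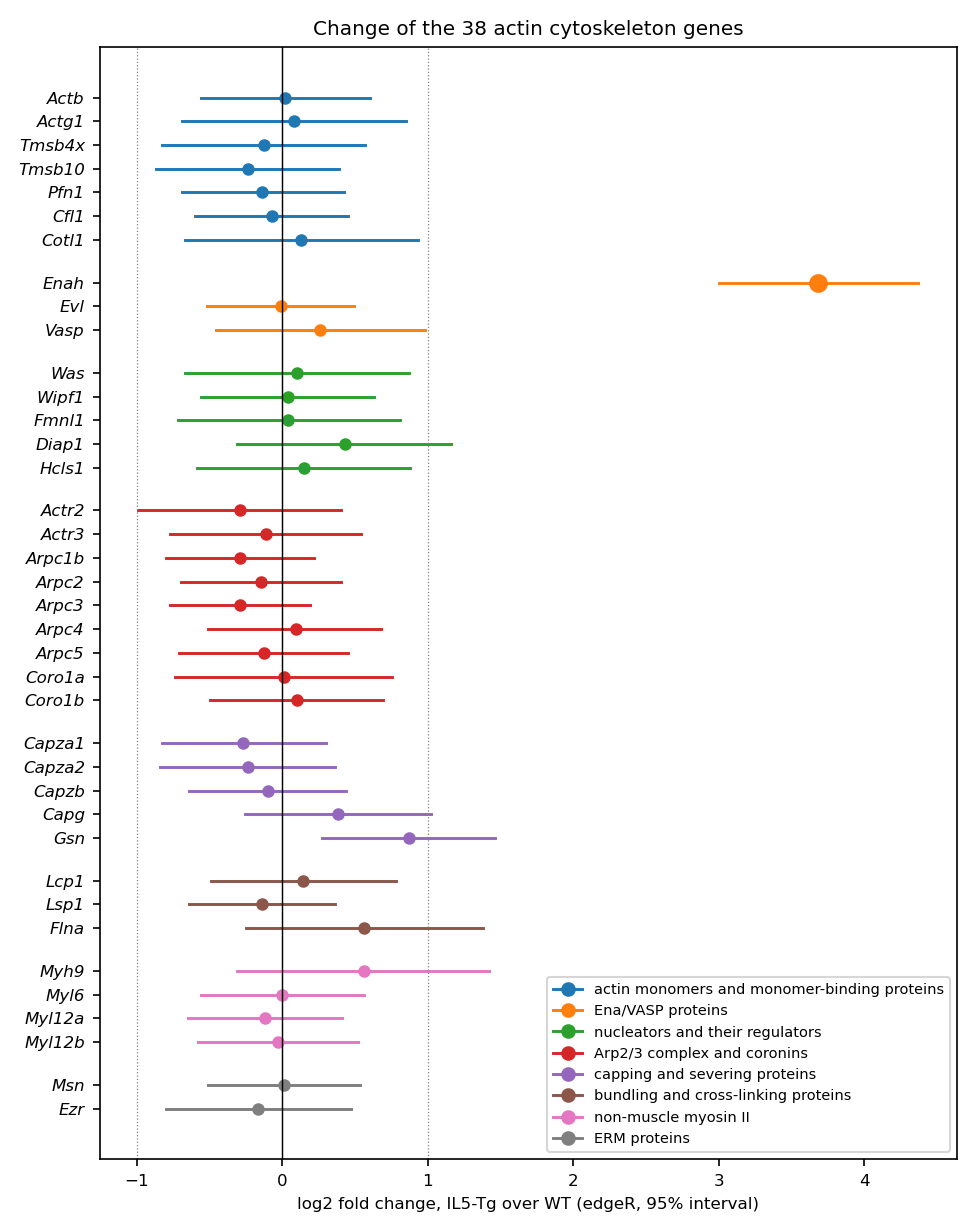
Log2 fold change of each of the 38 genes (IL5-Tg over WT, horizontal axis), coloured by role, with its 95% interval from edgeR's quasi-likelihood fit; dotted lines mark a change of 1 log2 unit and the larger point a called gene. Enah stands at 3.68 and the other 37 lie between -0.29 and 0.87.

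Enah, on the minus strand of chromosome 1 from 181896384 to 182019990 (mm10), measured 16.7, 26.6 and 30.3 CPM in WT and 260.4, 385, 312 and 303.5 CPM in IL5-Tg. The lowest IL5-Tg library was 8.58 times the highest WT library. Averaged, WT stood at 24.6 ± 7.03 CPM over its 3 libraries and IL5-Tg at 315 ± 51.6 CPM over its 4 (SD). The log2 fold change was 3.68 ± 0.31 (SE), with a 95% interval from 3.00 to 4.37, and the adjusted p of edgeR's quasi-likelihood test was 0.000748. On the linear scale this is 12.85-fold, with an interval from 7.99 to 20.7. Among all genes tested Enah ranked 4th by p, and 11th by log2 fold change among the 51 called. By its mean CPM it stood at percentile 55.8 of the tested genes in WT and at percentile 95.3 in IL5-Tg.

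The reads behind these values were 277, 252 and 321 in WT and 2779, 5007, 4283 and 5845 in IL5-Tg. No library was near 0. Divided by that library's most frequent low count, the reads came to 55.4, 31.5 and 26.8 in WT and to 2779, 5007, 4283 and 1461 in IL5-Tg. The groups were apart by CPM and by reads, which are not scaled to library size. The divisor was 5 or more in WT and 4 or less in IL5-Tg, so the division could only widen the gap in reads. Within the pairs of a WT and an IL5-Tg library whose names share a start, IL5-Tg 3 was 18.65-fold above WT 1 and IL5-Tg 4 was 11.4-fold above WT 2.

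Evl and Vasp, the paralogs of Enah, were not called. Evl measured 122.5, 113 and 134 CPM in WT and 141, 138, 110.0 and 99.2 CPM in IL5-Tg. Its groups overlapped, and the log2 fold change was -0.01 with an interval from -0.52 to 0.49 (edgeR adjusted p = 0.993). Vasp, on chromosome 7, measured 972.5, 1257 and 1810 CPM in WT and 1883, 2043, 1511 and 1003 CPM in IL5-Tg. The lowest library of each group lay at a similar level, and the change was 0.26 with an interval from -0.46 to 0.98 (edgeR adjusted p = 0.907). Without WT 3 the changes were 0.08 for Evl and 0.55 for Vasp. The upper limits of both intervals lie below the lower limit of Enah's.

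Because the 3 genes were read in the same library, their proportions do not depend on the scaling between libraries. There were 0.0172, 0.0212 and 0.0168 Enah reads per Vasp read in WT, and 0.138, 0.188, 0.207 and 0.303 in IL5-Tg. Per Evl read there were 0.137, 0.236 and 0.226 in WT, and 1.85, 2.79, 2.84 and 3.06 in IL5-Tg. Without division by gene length, Enah reads were thus fewer than Evl reads in every WT library and more numerous in every IL5-Tg library. Per kilobase of annotated exon, Enah made up 0.206 ± 0.0282% of the family's reads in WT (SD, n = 3) and 2.32 ± 0.718% in IL5-Tg (SD, n = 4). The size of this share depends on the length used, since the exons of Enah span 21452 bases in union and its principal transcript 2844: per kilobase of principal transcript the shares were 1.29% and 13.0%. The order of Enah and Evl in IL5-Tg depends on it too. Per kilobase of exon Evl held 6.37% in IL5-Tg on average, more than Enah in every IL5-Tg library. Per kilobase of principal transcript Evl held 6.40%, less than Enah in every one. Vasp held most of the family's reads per kilobase of exon in both groups, 91.9 ± 1.98% in WT (SD, n = 3) and 91.3 ± 1.64% in IL5-Tg (SD, n = 4). Per kilobase of principal transcript its share was 89.9 ± 2.15% in WT and 80.7 ± 4.13% in IL5-Tg (SD, n = 3 and 4), lower in every IL5-Tg library than in every WT library.

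**Figure D2:**
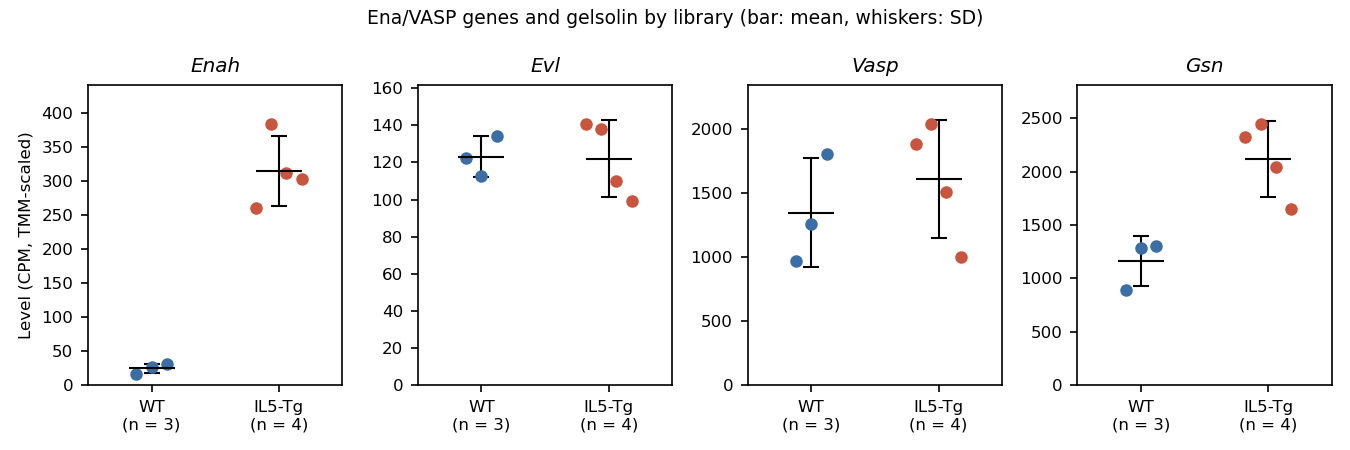
Level of Enah, Evl, Vasp and Gsn in each library (vertical axes, CPM, linear from 0) for 3 WT and 4 IL5-Tg libraries, with points for libraries, a bar for the mean and whiskers for the SD. Enah separates the groups, with every IL5-Tg library at 260.4 CPM or more and every WT library at 30.3 CPM or less, Evl and Vasp overlap, and Gsn separates with a smaller gap.

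Markers of other cells in muscle were read beside Enah. WT 3, with 16.2 CPM of fibroblast markers and 3.40 CPM of myogenic progenitor markers, had the highest Enah CPM of the WT libraries. Divided by the library's most frequent low count, its Enah reads were instead the lowest of WT (26.8, against 55.4 and 31.5). Without WT 3 the log2 fold change of Enah was 3.89, and with the fibroblast marker level as a covariate it was 3.90. The 10 muscle fibre markers summed to 354, 454.5 and 128 CPM in WT and to 1434, 467, 748 and 538 CPM in IL5-Tg, so these groups did not overlap. IL5-Tg 1, with the highest sum, had the lowest Enah CPM of the IL5-Tg libraries. Divided by the library's most frequent low count, Enah reads were instead lowest in IL5-Tg 4 (1461, against 2779 in IL5-Tg 1). The part of fibroblast, myogenic progenitor or muscle fibre RNA in the change of Enah was not tested. Neutrophil markers summed to between 10170 and 13790 CPM in WT and between 3306 and 5924 CPM in IL5-Tg, most of it Retnlg. Mast cell and basophil markers summed to between 221 and 502 CPM in WT and between 60.4 and 82.5 CPM in IL5-Tg, most of it Hdc. Both sums were lower in every IL5-Tg library than in every WT library, and the part of these cells in any change was not tested. Among the single neutrophil markers, Retnlg alone was lower in every IL5-Tg library. Ngp was higher in every one, at 0.363, 0 and 0 CPM in WT and 26.3 to 33.5 CPM in IL5-Tg, and the others overlapped. Macrophage and monocyte markers summed to 3625, 5194 and 3798 CPM in WT and to between 4813 and 5754 CPM in IL5-Tg. In WT 3 most of this sum was Adgre1, at 2459 CPM, its highest value. C1qa (68.4 CPM, against 373.5 and 674 in WT 1 and 2), C1qb, C1qc, Mrc1 and Cd68 were lowest in WT 3 among all libraries. Ly6c2 was highest of WT there, and Csf1r and Ccr2 lay between WT 1 and WT 2. In bulk libraries such as these, fewer cells of a type, less RNA per cell and a marker made by the sorted cells themselves cannot be told apart.

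The remaining marker lists overlapped between the groups. Endothelial markers summed to 175 to 196 CPM in WT and 146 to 288 in IL5-Tg, and dendritic cell markers to 413 to 862 and 644 to 1141. Smooth muscle and pericyte markers ran from 7.56 to 168 CPM and from 75.9 to 175 CPM, with Cnn1 at 0 in WT, and platelet markers from 42.0 to 242 and from 90.3 to 214. Markers of T cells, B cells and NK cells, which the sort was set against in part, stayed at or below 8.79 CPM in every library. The 10 eosinophil markers summed to 3544 to 7064 CPM in WT and 5012 to 9419 in IL5-Tg, and edgeR called 3 of them higher. Of the neutrophil markers it called 1 higher and 1 lower, of the mast cell and basophil markers 1 lower, and of the other lists none.

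**Figure D3:**
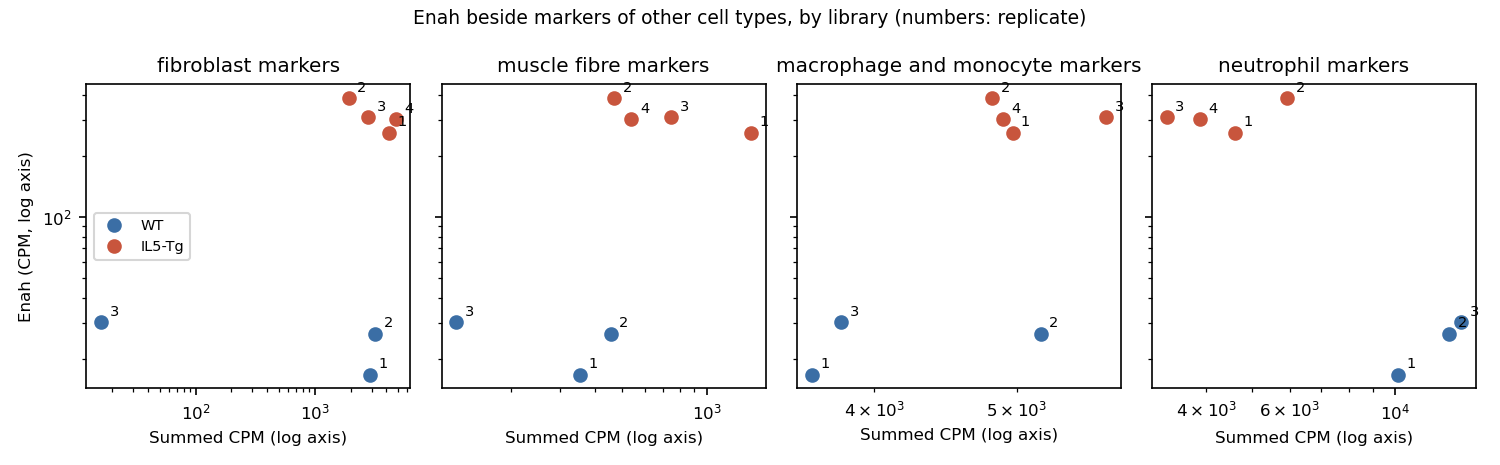
Enah level of each library (vertical axis, CPM, log axis) against the summed level of fibroblast, muscle fibre, macrophage and monocyte, and neutrophil markers (horizontal axes, CPM, log axes), with points numbered by replicate. WT 3, at 16.2 CPM of fibroblast markers, has the highest Enah of the 3 WT libraries, and IL5-Tg 1, at 1434 CPM of muscle fibre markers, the lowest of the 4 IL5-Tg libraries.

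The substrate of Enah and the proteins that hold monomers did not pass the test. Actb and Actg1 encode the β and γ cytoplasmic actins. Actb was the most abundant of the 38, at 11280 ± 1601 CPM in WT and 11460 ± 1833 CPM in IL5-Tg (SD, n = 3 and 4), and its log2 fold change was 0.02 with an interval from -0.56 to 0.60. Actg1 measured 1151, 2371 and 3154 CPM in WT and 2596, 2832, 2086 and 1867 CPM in IL5-Tg. WT 1 was low and every IL5-Tg library lay between the lowest and the highest WT library, with a change of 0.08. Per kilobase of exon Actg1 was 9.70% of the reads of both actins in WT 1, and 15.9% to 19.6% in the other 6 libraries. Both actins have near-identical copies in the genome, so their counts are uncertain to that extent.

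Profilin 1 (Pfn1), which hands actin to Ena/VASP proteins and formins, changed by -0.14 with an interval from -0.69 to 0.42. Cofilin 1 (Cfl1), which severs old filaments, changed by -0.07, with 2533 ± 283 CPM in WT and 2406 ± 245 CPM in IL5-Tg (SD, n = 3 and 4). The thymosins, which keep monomers out of filaments, changed by -0.13 (Tmsb4x) and -0.24 (Tmsb10). Tmsb10 measured 523, 624 and 299 CPM in WT and 473, 345, 385 and 432 CPM in IL5-Tg, so that WT 3 and WT 2 bracketed every IL5-Tg library. Coactosin-like 1 (Cotl1), a filament-binding protein of the cofilin fold, measured 2009, 4840.0 and 4444 CPM in WT and 4696, 5278, 3836 and 2679 CPM in IL5-Tg, a change of 0.13 with WT 1 the lowest library. Across these 7 genes of monomer supply, intervals ran from -0.87 to 0.93 and the lowest edgeR adjusted p was 0.901.

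None of the 5 nucleators and nucleator regulators was called (lowest edgeR adjusted p = 0.809). Was encodes WASP, the Arp2/3 activator of blood cells, and Wipf1 the WIP protein that stabilises it. Was measured 144, 350 and 365 CPM in WT and 338, 392, 278 and 219 CPM in IL5-Tg. Its lowest library was WT 1, and the others overlapped. The changes of the pair were 0.10 (interval from -0.67 to 0.87) and 0.04 (from -0.56 to 0.63). Fmnl1, a formin of leukocytes, measured 338, 646 and 862 CPM in WT and 689, 811, 605.5 and 429 CPM in IL5-Tg, a change of 0.04. Hcls1, the blood-cell relative of cortactin, measured 617, 1210.0 and 1362 CPM in WT and 1263, 1567, 997 and 883 CPM in IL5-Tg, a change of 0.15. Both were lowest in WT 1. Diap1 (the formin mDia1) measured 406, 521 and 872 CPM in WT and 858, 1097, 639 and 627 CPM in IL5-Tg. Its change of 0.43 had an interval from -0.31 to 1.16. WT 3 lay above 3 of the 4 IL5-Tg libraries, and without it the change was 0.82 (edgeR adjusted p = 0.469).

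For the Arp2/3 complex and the coronins, which bind the complex and its branches, 3 of 9 changes were above 0 and 6 below, none called. Arpc1b, the complex's subunit of leukocytes, measured 1299, 1332 and 1705 CPM in WT and 1075, 1262, 1237 and 1162 CPM in IL5-Tg. Arpc3 measured 747, 650 and 765 CPM in WT and 540, 619, 589 and 612 CPM in IL5-Tg. For both, every IL5-Tg library was below every WT library, by a narrow margin. The log2 changes were -0.29 (interval from -0.80 to 0.22, edgeR adjusted p = 0.821) for Arpc1b and -0.29 (from -0.77 to 0.19, edgeR adjusted p = 0.799) for Arpc3, and without WT 3 they were -0.13 and -0.22.

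The other subunits overlapped between groups. Actr2 and Actr3, the actin-related proteins at the root of a branch, changed by -0.29 and -0.11. Arpc2 and Arpc4, the pair at the core of the complex, changed by -0.15 and 0.09, and Arpc5 by -0.13. Coro1a, the main coronin of leukocytes, measured 2985, 4515 and 5640 CPM in WT and 4912, 5668, 4427 and 2589 CPM in IL5-Tg, a change of 0.01 with an interval from -0.74 to 0.75. The distance between its highest and lowest library was 0.92 log2 units within WT and 1.13 within IL5-Tg. Coro1b changed by 0.10.

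Gelsolin (Gsn), which cuts filaments in the presence of calcium and then caps their barbed ends, came nearest to Enah. It measured 892, 1288 and 1304 CPM in WT and 2323, 2449, 2046 and 1646 CPM in IL5-Tg, so the groups did not overlap. The change was 0.87 ± 0.27 (SE), with an interval from 0.27 to 1.46, and did not pass (edgeR adjusted p = 0.327; DESeq2 adjusted p = 0.0621). Over the alternatives its change ran from 0.71 to 0.99, and it was 0.98 without WT 3. Gsn is also strongly expressed by fibroblasts and muscle, whose markers are given above, and their part in its values was not tested. WT 3, nearly without fibroblast markers, measured 1304 CPM of Gsn, close to the 1288 CPM of WT 2. By reads WT 1 was the highest of WT, at 14769, against 12198 in WT 2 and 13799 in WT 3. The most frequent low count also differed among these libraries, as given above.

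The heterodimer that caps barbed ends against Ena/VASP proteins changed by -0.27 (Capza1), -0.24 (Capza2) and -0.10 (Capzb), with intervals from -0.84 to 0.44 in all. Capg, a gelsolin relative of macrophages that caps and does not cut, measured 786, 1272 and 796 CPM in WT and 1419, 1223, 1434 and 885 CPM in IL5-Tg, a change of 0.38 with an interval from -0.26 to 1.02.

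Among bundling and cross-linking proteins, Lcp1 (L-plastin) changed by 0.14, with 1885 ± 557 CPM in WT and 2083 ± 392 CPM in IL5-Tg (SD, n = 3 and 4), and Lsp1, a filament-binding protein of leukocytes, by -0.14. Filamin A (Flna), which cross-links filaments into a network, measured 1082, 2545 and 2795 CPM in WT and 3364, 4190, 2899 and 2214 CPM in IL5-Tg. WT 1 was low, and IL5-Tg 4 lay below 2 of the WT libraries. Its change of 0.56 had an interval from -0.25 to 1.38 and became 0.25 without WT 1 and 0.82 without WT 3.

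Myh9, the heavy chain of the non-muscle myosin IIA that pulls on filaments, measured 1140, 1456 and 3058 CPM in WT and 2930, 3954, 2023 and 2175 CPM in IL5-Tg. WT 3 lay above 3 of the 4 IL5-Tg libraries, and the change of 0.56 had an interval from -0.31 to 1.42. It was 0.30 without WT 1 and 1.12 without WT 3. Its light chains changed by 0.00 (Myl6), -0.12 (Myl12a) and -0.03 (Myl12b). Myl12a and Myl12b are near-identical neighbours on chromosome 17, so reads may be divided between them. Moesin (Msn) and ezrin (Ezr), which tie filaments to the plasma membrane, changed by 0.01 (interval from -0.51 to 0.53) and -0.17 (from -0.80 to 0.47).

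**Figure D4:**
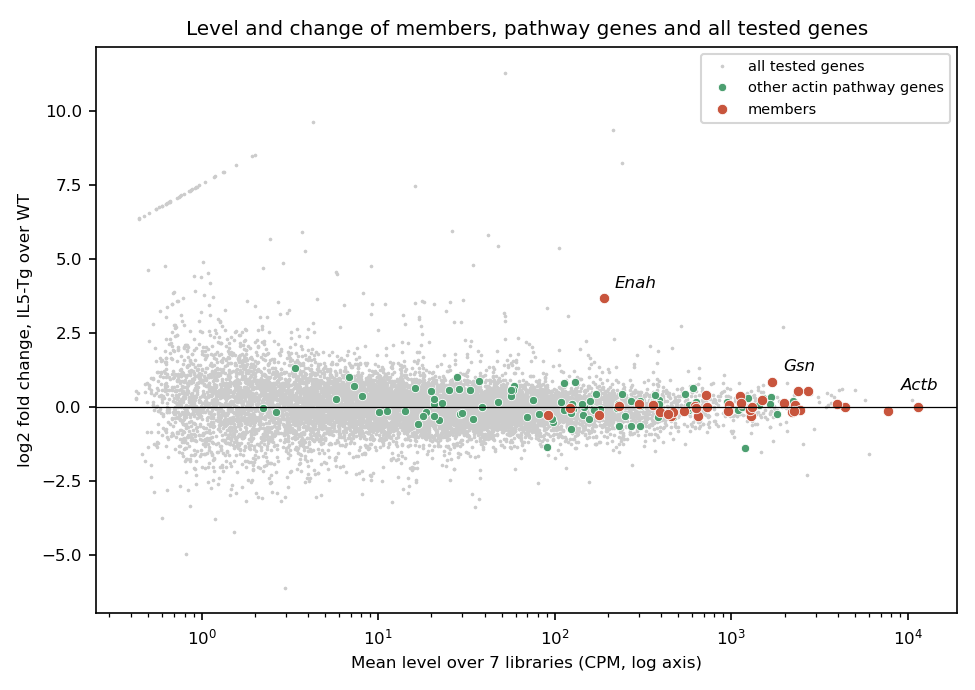
Log2 fold change (IL5-Tg over WT, vertical axis) against mean level over the 7 libraries (horizontal axis, CPM, log axis) for all 12428 genes tested in grey, with the 38 actin cytoskeleton genes (members) in red and other actin pathway genes in green. Most of the 38 lie among the abundant genes, near a change of 0, and Enah stands apart at 3.68.

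The intervals show how large a change the 37 genes could still have had. For 32 of them (86.5%) the whole interval lay within 1 log2 unit of 0, that is, within a doubling or halving. Over all genes tested this held for 29.3%, and for 60.4% of the 2111 tested genes in the same range of mean level, 91.5 to 11380 CPM. The 2111 genes share only the end points of this range. Their levels within it were not matched to those of the 37, so these shares are not compared at equal level. The highest upper limit was 1.46, for Gsn, and the lowest lower limit -0.99, for Actr2. The 5 genes whose upper limit passed 1 were Gsn, Myh9, Flna, Diap1 and Capg.

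For the 37 genes, the range among libraries of a group was set beside the change between groups. The mean of the IL5-Tg libraries lay inside the WT range for 32 of the 37. The distance between the highest and the lowest WT library exceeded the change for 35. Its median over the genes was 0.79 log2 units in WT and 0.56 in IL5-Tg, while the median size of the change was 0.13. Actg1 had the widest WT range, 1.45, and Arpc3 the narrowest, 0.24. The counts of 32 and 35 were not taken over all genes tested, so they do not set the 37 apart from other genes. A range of single libraries is also a wider measure than a difference of group means.

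The libraries took different places. Of the 37 genes, 15 were highest in WT 3 and 14 in IL5-Tg 2, while 17 were lowest in WT 1. Expressed as the deviation from the gene's own mean over libraries, on the log2(CPM + 1) scale, the median gene stood at -0.25, -0.02 and 0.32 log2 units in WT 1, 2 and 3, and at 0.06, 0.29, -0.09 and -0.19 in IL5-Tg 1 to 4. Genes moved unequally within a library: in WT 1 deviations ran from -1.23 to 0.60. Summed, the 38 genes took 6.16 ± 0.992% of the scaled counts in WT (SD, n = 3) and 6.43 ± 1.03% in IL5-Tg (SD, n = 4), a difference smaller than the SD of either group. The median change of the 38 was 0.17 without WT 3 and -0.11 without WT 1.

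**Figure D5:**
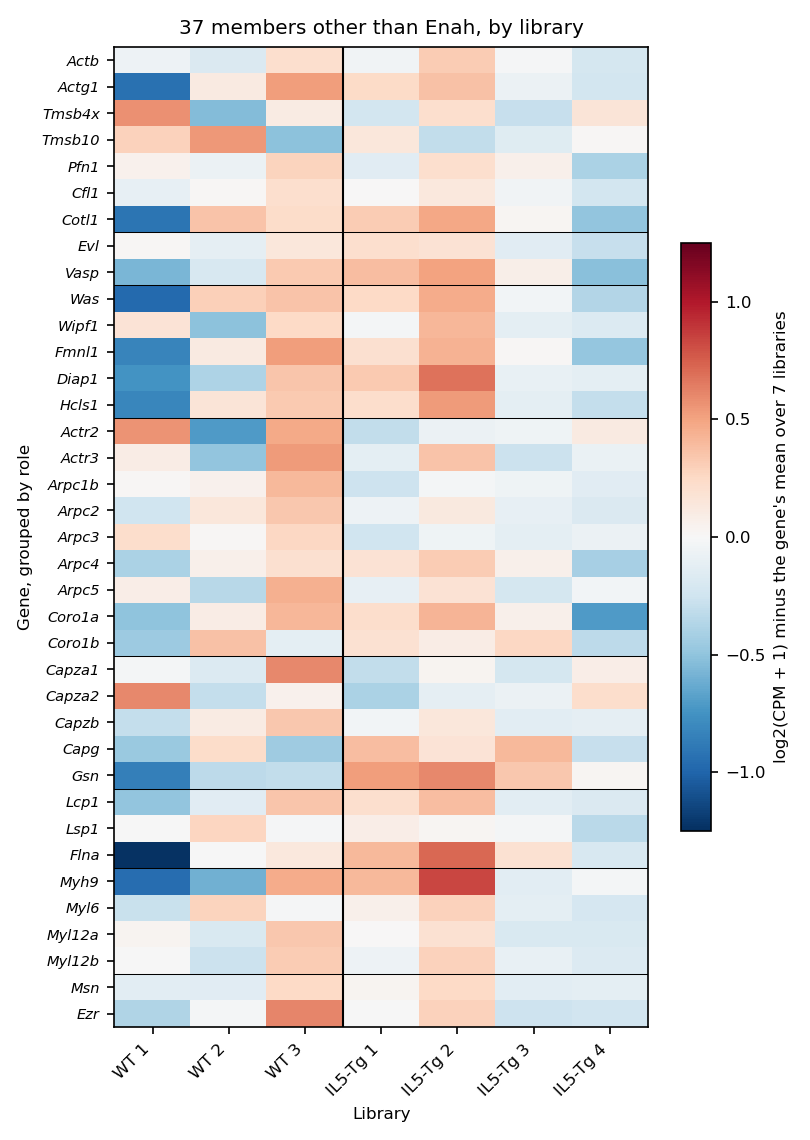
Deviation of each of the 37 genes other than Enah (one per line, grouped by role) from its own mean over the 7 libraries, in log2(CPM + 1) units, with libraries as columns and red for values above the mean. Most genes are above their mean in WT 3 and IL5-Tg 2, and Actg1, Flna and Myh9 are among those far below it in WT 1.

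A wider list of 98 actin regulators outside the 38 was read from the same fit. Of these, 95 were tested, and Wasf1, Actr3b and Scin were not. None was called by edgeR. An unadjusted p under 0.05 was found for 7 (7.37%), against 9.04% of all genes tested, and DESeq2 called 2 (2.11%), Marcksl1 and Plek, against 1.81% of all genes. The median change was 0.09, with 54 values above 0 and 41 below. Groups did not overlap for 5 with IL5-Tg higher and 5 with IL5-Tg lower, or 10 of 95, beside 4.76% and 4.6% of all genes.

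The gene with the smallest p of each role was read. Marcksl1, a membrane-bound filament-binding substrate of protein kinase C, measured 170.1, 115 and 128.5 CPM in WT and 66.8, 38.4, 64.6 and 51.1 CPM in IL5-Tg. Every IL5-Tg library was below every WT library, the change was -1.32 (interval from -1.91 to -0.73), and it did not pass in edgeR (adjusted p = 0.0857) but did in DESeq2 (adjusted p = 0.00194). Gmfg, a leukocyte protein that takes Arp2/3 branches apart, changed by -0.61, with 377 ± 39.6 CPM in WT against 247 ± 31.5 CPM in IL5-Tg (SD, n = 3 and 4) and no overlap. Cttn (cortactin, which steadies branches) measured 18.6, 27.8 and 5.67 CPM in WT and 35.0, 30.3, 31.0 and 46.0 CPM in IL5-Tg, a change of 1.04 with an interval from 0.01 to 2.06, and its lowest value was in WT 3, the library nearly without fibroblast markers. Without WT 3 the change of Cttn was 0.64 (edgeR adjusted p = 0.602). Rock1, a kinase that raises myosin II activity, changed by -0.72 with overlapping groups.

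Among partners of the Ena/VASP proteins, 11 of 11 were not called and their changes ran from -0.32 to 0.65. The smallest p was that of Lpp, a focal adhesion protein of the zyxin family, at a change of 0.65 ± 0.34 (SE). The same role by role choice gave Dstn (destrin, a cofilin relative) at 0.46, Add3 (an adducin) at -0.25, Slc9a3r1 (a scaffold for ezrin) at 0.65, Rhoh (a GTPase of blood cells) at 0.58 and Mkl1 (a partner of the transcription factor SRF that senses monomeric actin) at 0.13. None of these 5 passed (lowest edgeR adjusted p = 0.583). Chosen after their values were seen, 2 more genes with an unadjusted p under 0.05 were Actn1 (α-actinin 1) at 0.87 and Plek (pleckstrin) at -1.37. Plek measured 2007, 874 and 2662 CPM in WT and 657, 764, 520 and 920 CPM in IL5-Tg, and WT 2 lay below IL5-Tg 4. Without WT 3 its change was -0.98.

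Promoter windows were found for 33 of the 38 genes, 43 windows in all. None was found for Actb, Cotl1, Diap1, Coro1b and Lsp1, so these genes were not searched. The spacing TTCNNNGAA, which STAT proteins bind and which reads the same on both strands, was in none of the 43 and in 8.30% of all 32851 windows. The CArG box, which SRF binds at many cytoskeletal genes, was searched on both strands and was in 3 of the 43, against 1.63% of all windows. The 3 sites are shown with their flanks because SRF is the known regulator of actin genes, with the box in capitals.
Arpc4: CCTAATTTGGtgcccaac
Myl6: tcttacttCCTTATATGGgcaggacc
Actg1: aaagatcgCCATATATGGacatgttc
They lie on GRCm38.p6 at chr6:113377863-113377880 (plus strand), chr10:128493042-128493067 (minus strand) and chr11:120348568-120348593 (minus strand). The changes of these genes were 0.09, 0.00 and 0.08. No match says only that these letters are not in this window.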

How the data were processed

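RNA was measured in 7 libraries, 3 WT and 4 IL5-Tg. The authors deposited 1 table of raw read counts per gene. Per the labels' protocols, libraries were stranded mRNA libraries read as pairs of 42 bases. The submitters' processing notes name bcl2fastq 2.20, Bowtie, STAR and mm10; not given in the sources used here are the counter, the annotation and the strand setting, and whether overlapping genes were split by strand is thus not known. Rows that name no gene were left out. The no feature row took 16.5%, 15.6% and 18.2% of the total in WT 1 to 3 and 9.15%, 12.2%, 9.78% and 13.0% in IL5-Tg 1 to 4. Every WT library was thus above every IL5-Tg library, and the part of this difference in any change was not tested. The ambiguous row took 0.750% to 0.943% of the total.

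Counts were fitted with edgeR 4.0.16 in R 4.3.3 (TMM scaling, filterByExpr, robust quasi-likelihood, genotype as the only term), with Benjamini-Hochberg adjustment over all 12428 genes tested and a threshold of 0.05. Intervals of 95% come from the SE and the degrees of freedom of the fit. The common coefficient of variation was 52.5%. The procedure was tested on simulated data. Alternatives used DESeq2 1.42.0, limma 3.58.1, other scalings, filters and covariates, and left out each library in turn. Positions and lengths are from GENCODE vM21 and promoters from RefSeq. All 38 genes are named. Of the wider list, every called gene was to be named and, in a role without one, the gene with the smallest p. The members, lists and tests were chosen with earlier results of these data known. Replicate numbers follow the order of deposit and pair nothing. No molecular identifiers are named, so PCR copies count as reads.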

Additional observations from a re-analysis of the deposited data

Results flagged for a closer look

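In 67 sets of 4 IL5-Tg values, the gap between the lowest or highest library and its neighbour was compared with the range of the set, and Dixon's 95% critical value for 4 samples was passed for 2, where chance gives about 1 in 20. The share of Vasp among Ena/VASP reads per kilobase was 88.9% in IL5-Tg 4 and 91.75% to 92.3% in the other 3 libraries, a ratio of 0.834. This holds by exon length: per kilobase of principal transcript the share was 74.8% in IL5-Tg 4 and at most 84.5% in the others, a ratio of 0.638, and by reads the ratio was 0.615, both under the critical value. The share of Myl12b among myosin light chain reads per kilobase was 26.9% in IL5-Tg 1 and 28.8% to 29.2% in the others, a ratio of 0.837 (0.839 by reads, and 0.802, under the critical value, by principal transcript). Groups of 3, as in WT, were not tested.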

How the results depend on the processing

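Enah was the only one of the 38 genes called in each of the 17 alternatives, with log2 fold changes from 3.47 to 3.90 and a highest adjusted p of 0.0107. No paired analysis was possible because the replicate numbers only follow the order of deposit and pair no libraries. Instead, a block on the shared start of library names, which is not a replicate number, could be fitted and gave 3.87 for Enah. This value rests on WT 1 with IL5-Tg 3 and WT 2 with IL5-Tg 4, which share a start across the groups. IL5-Tg 1 and IL5-Tg 2 share a start only with each other, and WT 3 with no library. The other 37 stayed uncalled wherever they were tested, Actb, Tmsb4x and Coro1a in 16 alternatives since they are among the 10 most abundant genes left out in 1 (lowest adjusted p 0.0621, Gsn in DESeq2), with changes from -0.57 to 1.12, and 27 changed sign in at least 1 alternative. Of the other actin pathway genes, 0 were called in the fit reported, 2 by DESeq2 (Marcksl1 and Plek), 1 with the fibroblast covariate and 1 after division by the most common low count (Marcksl1 in both). The share of Enah in its family per kilobase was 0.206% in WT and 2.32% in IL5-Tg by exon length, 1.29% and 13.0% by principal transcript, and 1.65% and 16.0% with no division by length; both of these alternatives were chosen after the data were seen, and the difference follows from the lengths.

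Over all genes, 51 were called in the fit reported, 225 by DESeq2, 112 with the fibroblast covariate, 100 after division by the most common low count and 32 by limma-voom. Leaving out 1 library gave 16 to 97 calls, the lowest without IL5-Tg 1 or IL5-Tg 2 and the highest without WT 3. The split of calls was 42 higher and 9 lower in the fit reported, 72 and 28 after division by the most common low count, 141 and 84 by DESeq2, and 30 and 31 without WT 2. The cause of these differences was not tested.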

Other observations

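Around Enah, 27 annotated genes lie within 500 kb, of which 6 were tested and 0 called, with log2 fold changes from -0.88 to 0.38. Within the Arp2/3 complex, Arpc2 held the largest share of reads per kilobase of exon in all 7 libraries, 39.9 ± 4.49% in WT (SD, n = 3) and 39.5 ± 0.373% in IL5-Tg (SD, n = 4). Arpc1a, the other isoform of Arpc1b, held 0.934 ± 0.242% and 1.20 ± 0.132%.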
